A study of Mus musculus with 15 samples.

Results

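The Kruppel-like factor genes examined here were Klf1, Klf2, Klf3, Klf4, Klf6, Klf7, Klf9, Klf10 and Klf13, 9 of the 19933 genes that a mouse expression array measured with a probe set of 1 gene symbol. Each had 1 such probe set, so none had to be chosen among several. Expression was measured in 15 cultures of G1E cells, mouse erythroid precursors without GATA1, on which red cell maturation depends. There were 3 biological replicates of each of 5 lines, which carried GATA1(R216Q)-ER and GATA1(R216W)-ER (called R216Q and R216W below), GATA1(D218G)-ER and GATA1(D218Y)-ER (D218G and D218Y), or the unchanged GATA1-ER (WT). ER is the estrogen receptor domain through which estradiol activates the fusion protein. All 5 lines, WT included, lacked endogenous GATA1 and had been induced with 100 nM estradiol for 24 hours, and uninduced cells were not analysed here. Both residues belong to the amino-terminal zinc finger, through which GATA1 binds its cofactor FOG1 and some DNA sites. Each amino acid change was represented by 1 line, whose number of clones or pools the labels do not state, so line and mutation cannot be told apart.

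Kruppel-like factors bind GC-rich and CACCC sequences through zinc fingers at their carboxyl end, and differ in the rest of the protein, through which they activate or repress. KLF1 activates adult beta-globin and many other red cell genes, its gene is activated by GATA1, and KLF1 in turn activates Klf3, whose product binds the corepressor CtBP and competes at CACCC sites. Klf2 and Klf13 also take part in mouse red cell formation, whereas Klf4, Klf6, Klf7, Klf9 and Klf10 are better known from other tissues or as genes induced by hormones and growth factors.

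Promoter windows, which run from 250 bases before to 50 bases after the start of the gene in RefSeq (GRCm38.p6), were found for 8 of the 9 genes, Klf10 being the one without. The Klf7 window (chr1:64121340-64121639, minus strand) differs, as it lies inside the gene, whose span is 64029448-64122345. The windows of Klf1, Klf3 and Klf6 are shown because Klf1 and Klf3 fell together in D218Y and Klf6 separated the 2 mutated residues. Capitals mark matches on either strand to a GATA hexamer (GATA preceded by A or T and followed by A or G) or to the KLF box CCNCNCCC, where adjoining capitals can be overlapping matches.
Klf1 (GRCm38.p6, chr8:84901732-84902031, plus strand): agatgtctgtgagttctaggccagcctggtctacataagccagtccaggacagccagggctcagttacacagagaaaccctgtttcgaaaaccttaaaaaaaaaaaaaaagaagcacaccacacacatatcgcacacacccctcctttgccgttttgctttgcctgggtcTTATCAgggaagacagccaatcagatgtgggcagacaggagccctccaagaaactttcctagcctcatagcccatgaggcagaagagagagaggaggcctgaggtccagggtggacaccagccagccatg
Klf3 (GRCm38.p6, chr5:64803271-64803570, plus strand): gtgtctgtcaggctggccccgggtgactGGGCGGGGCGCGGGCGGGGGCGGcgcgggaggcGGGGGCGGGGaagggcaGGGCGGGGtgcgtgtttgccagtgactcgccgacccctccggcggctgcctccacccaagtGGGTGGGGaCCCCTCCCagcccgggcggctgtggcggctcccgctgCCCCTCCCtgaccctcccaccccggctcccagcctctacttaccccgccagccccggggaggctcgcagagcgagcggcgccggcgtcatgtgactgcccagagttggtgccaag
Klf6 (GRCm38.p6, chr13:5861239-5861538, plus strand): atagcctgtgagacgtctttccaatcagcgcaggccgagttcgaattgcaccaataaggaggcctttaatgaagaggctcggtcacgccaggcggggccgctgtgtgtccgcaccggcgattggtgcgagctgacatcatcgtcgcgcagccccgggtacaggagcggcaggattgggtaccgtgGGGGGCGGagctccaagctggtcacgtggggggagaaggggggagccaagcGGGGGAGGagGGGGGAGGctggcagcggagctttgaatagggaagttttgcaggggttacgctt
The Klf1 window held 1 GATA hexamer, read as TTATCA on the strand shown and with its first base at position -80 from the start of the gene, and 0 KLF boxes. Klf3 had 10 overlapping or separate KLF boxes and Klf6 had 3, with 0 GATA hexamers in either window. Among the other windows Klf2 had 1 GATA hexamer and 4 KLF boxes, Klf4, Klf7 and Klf13 had 9, 8 and 5 KLF boxes, and Klf9 had 0 of either. Of all 32851 mouse promoter windows of this length, 29.8% held a GATA hexamer and 49.5% a KLF box. These matches describe the letters of the windows alone.

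The values were log2 RMA values, between 2.89 and 13.58 over all arrays, with array medians between 6.24 and 6.41. D218G was the most variable line (median SD per gene 0.08, and 0.05 to 0.06 in the others), and its replicate 3 had an array median of 6.25 when the other two were at 6.37 and 6.40. All 3 D218Y arrays were as low, with medians of 6.24, 6.29 and 6.26. The arrays of WT, R216Q and R216W had medians between 6.31 and 6.41. Of 9 measured erythroid markers, 9 lay above the median gene in R216Q, R216W, D218G and WT and 8 in D218Y. In D218Y Slc4a1 (6.81), Epb42 (6.75) and Hba-x (6.65) were near the median gene (6.41), and Hbb-y (5.76) was below it. Hbb-y was also near the median gene in R216Q (6.54 and 6.50) and R216W (6.65 and 6.47). The summed linear signal of the 9 was 11241 to 11382 in the D218Y arrays and 27523 to 27879 in the WT arrays. Of 7 mast cell markers, Tpsab1 (8.36) and Ms4a2 (6.56) were above the median gene in D218Y and none was in the other lines, and their summed signal was 558 to 626 in D218Y and 211 to 220 in WT. Of 6 measured megakaryocyte markers 4 were above the median gene in every line, with a summed signal of 562 to 569 in D218Y and 2064 to 2181 in WT, and 3 of 6 stroma markers were above it in every line. The part of these markers in the results below was not tested. None of the 9 granulocyte and monocyte or the 6 measured lymphoid markers was above the median gene in any line. Gata1 itself averaged 12.15, 12.25, 12.35 and 12.07 in R216Q, R216W, D218G and D218Y and 12.36 in WT. By limma it was lower than WT in D218Y (-0.29 ± 0.03, standard error, adjusted p = 1.12e-06), R216Q (-0.21 ± 0.03, adjusted p = 1.08e-04) and R216W (-0.11 ± 0.03, adjusted p = 0.0220). In D218G it did not pass (-0.0041 ± 0.03, limma adjusted p = 0.961). The part of these Gata1 levels in the results below was not tested.

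The clearest changes among the 9 genes were a fall of Klf3 in D218Y, a rise of Klf10 that was largest in D218Y, a fall of Klf13 in every mutant, and a Klf6 level that went up with changes of residue R216 and down with changes of D218. Over the 5 lines, 7 of the 9 genes differed by limma's F test at an adjusted p under 0.05 (adjusted p from 2.11e-11 for Klf3 to 0.00994 for Klf7), where 41.9% of all genes did. Klf2 (adjusted p = 0.136) and Klf4 (adjusted p = 0.242) did not pass. Values below are log2 levels, and differences are mutant minus WT on the log2 scale with limma's moderated standard error (SE) and a Benjamini-Hochberg adjusted p over all 19933 genes. In such bulk RNA, fewer cells that express a gene and less RNA per cell cannot be told apart. All comparisons with WT share the same 3 WT arrays.

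**Figure D1:**
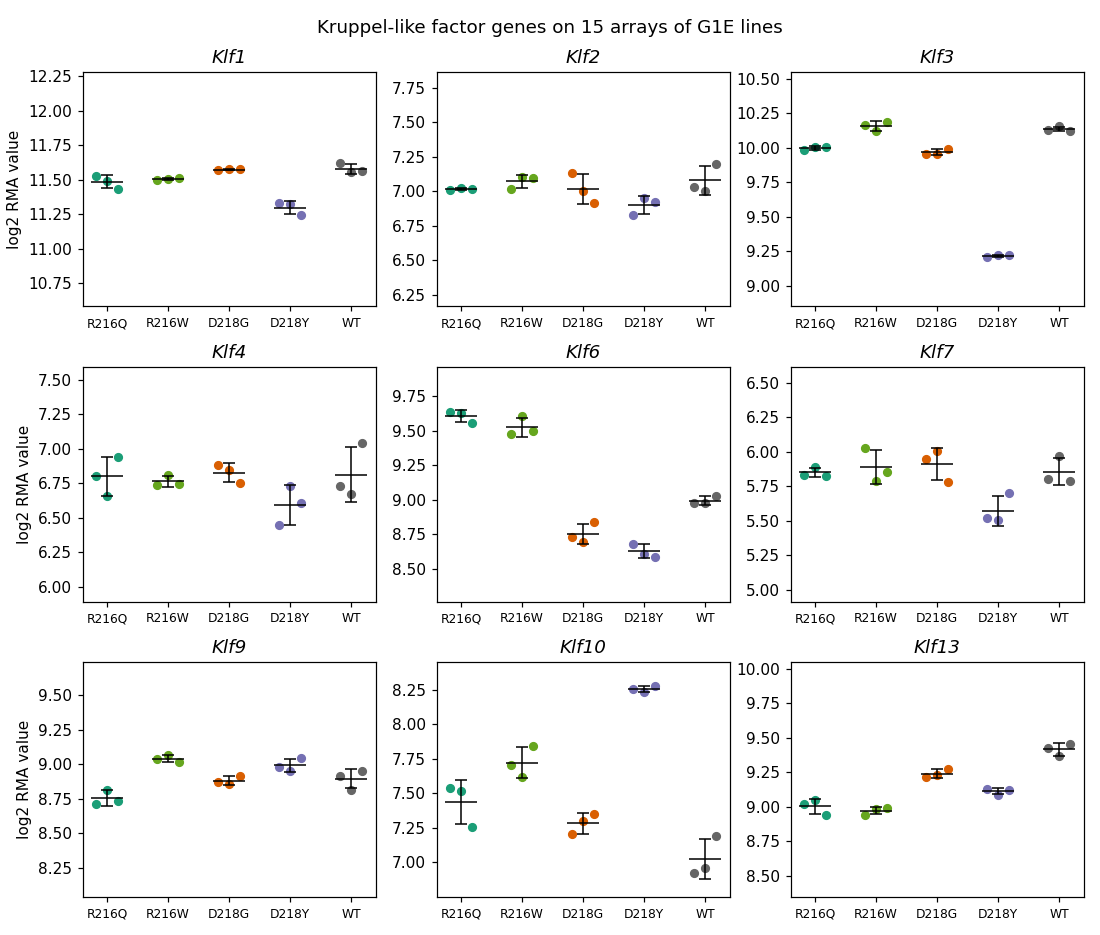
Log2 RMA value of each Kruppel-like factor gene (vertical axis, the same span in every panel) on each of 3 arrays per line (points), with the mean and SD (black bars). Klf3 is lowest in D218Y (mean 9.22), Klf10 is highest there (mean 8.26), and Klf6 lies above WT (mean 8.996) in both R216 lines and below it in both D218 lines.

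Klf1, the erythroid activator, read 11.53, 11.49 and 11.43 in R216Q, 11.50, 11.51 and 11.51 in R216W, 11.57, 11.57 and 11.57 in D218G, 11.33, 11.32 and 11.24 in D218Y, and 11.62, 11.56 and 11.56 in WT. The D218Y arrays lay below all other arrays, and those of D218G overlapped WT. In D218Y Klf1 fell by 0.28 ± 0.04 (SE, n = 3 per line, limma adjusted p = 1.46e-05), which is 17.7% lower. It did not pass in R216Q (-0.09 ± 0.04, limma adjusted p = 0.0997), R216W (-0.07 ± 0.04, adjusted p = 0.248) or D218G (-0.0050 ± 0.04, adjusted p = 0.961), and the 95% interval for D218G ran from -0.08 to 0.07. From high to low the order was WT, D218G, R216W, R216Q and D218Y, in which the last neighbours passed the test (D218Y minus R216Q -0.19 ± 0.04, limma adjusted p = 0.00102). Klf1 in R216Q passed in the fits that kept genes above the median intensity, used trend and robust moderation, no moderation or array weights (limma adjusted p from 0.0151 to 0.0359), and in R216W with array weights (limma adjusted p = 0.0284).

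Klf3, the CACCC-binding repressor whose gene KLF1 activates, had the smallest standard error and the largest fall of the 9 genes. It read 9.985, 10.006 and 10.001 in R216Q, 10.16, 10.12 and 10.19 in R216W, 9.95, 9.96 and 9.99 in D218G, 9.21, 9.22 and 9.22 in D218Y, and 10.13, 10.15 and 10.12 in WT. The 3 D218Y arrays lay far below all others, R216Q and D218G lay just below WT, and R216W overlapped WT. In D218Y Klf3 fell by 0.92 ± 0.03 (SE, n = 3 per line, limma adjusted p = 7.33e-12), to 47.1% below WT. It fell by 0.17 ± 0.03 in D218G (limma adjusted p = 0.00134) and by 0.14 ± 0.03 in R216Q (adjusted p = 0.00497), whereas R216W was at 0.02 ± 0.03 (adjusted p = 0.757, 95% interval -0.05 to 0.09). The order was R216W, WT, R216Q, D218G and D218Y. R216W and WT did not differ beyond their spread, nor did D218G and R216Q (-0.03 ± 0.03, limma adjusted p = 0.694), and the other neighbours passed. Without replicate 3 of D218G the difference in that line was -0.18 (limma adjusted p = 0.00174).

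Klf3 and Klf1 thus had their lowest values in the same line, but by unequal amounts, at -0.92 and -0.28 in D218Y. The gene most like Klf3 was Slc4a1, which encodes the anion exchanger band 3, with Pearson r = 0.997 over the 15 arrays, the highest of 3128 named genes that passed the F test and whose line means spanned at least 0.5. Hectd4 (r = 0.995) and St3gal2 (r = 0.995) came next. Slc4a1 spanned 5.60 between line means and Klf3 0.94. The 15 arrays fall into 5 lines, and once the line means were removed the correlation of Klf3 with Slc4a1 was -0.03.

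Klf6, a broadly expressed factor needed for blood formation in the mouse yolk sac, split the lines by residue. It read 9.64, 9.63 and 9.56 in R216Q, 9.48, 9.61 and 9.50 in R216W, 8.73, 8.70 and 8.84 in D218G, 8.68, 8.61 and 8.59 in D218Y, and 8.98, 8.98 and 9.03 in WT. All 6 arrays of the R216 lines were above every WT array, and all 6 of the D218 lines were below every WT array. Klf6 rose by 0.61 ± 0.05 in R216Q (SE, n = 3 per line, limma adjusted p = 2.66e-07, 1.53-fold) and by 0.53 ± 0.05 in R216W (adjusted p = 1.62e-06, 1.44-fold). It fell by 0.24 ± 0.05 in D218G (limma adjusted p = 0.00205, 15.4% lower) and by 0.37 ± 0.05 in D218Y (adjusted p = 1.32e-05, 22.5% lower). The differences between residues were tested directly and all passed. They were -0.86 ± 0.05 for D218G minus R216Q, -0.77 ± 0.05 for D218G minus R216W, -0.98 ± 0.05 for D218Y minus R216Q and -0.90 ± 0.05 for D218Y minus R216W (limma adjusted p from 9.27e-10 to 1.77e-08). Within residues Klf6 did not pass, at -0.08 ± 0.05 for R216W minus R216Q (limma adjusted p = 0.343, 95% interval -0.19 to 0.02) and -0.13 ± 0.05 for D218Y minus D218G (adjusted p = 0.0568, 95% interval -0.23 to -0.02). The R216W minus R216Q difference passed with array weights (-0.11, limma adjusted p = 0.0304).

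The D218Y minus D218G difference of Klf6 passed under quantile normalization (-0.24, limma adjusted p = 8.06e-05) and cyclic loess (-0.14, adjusted p = 0.00831), with genes above the median intensity, with trend and robust moderation, and without replicate 2 of R216W, replicate 2 of D218G or replicate 1 of D218Y (adjusted p from 0.0263 to 0.0446). Without replicate 3 of D218G, Klf6 was -0.28 against WT in that line (limma adjusted p = 6.95e-04). Over the 15 arrays the named genes most like Klf6 were Pak4, a kinase gene (r = 0.980), Zfp36, which encodes an mRNA decay factor (r = 0.962), and Chd2, a chromatin remodeller gene (r = 0.952). Within lines their correlations with Klf6 were 0.30, -0.04 and 0.74.

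Klf10, a repressor first known as an early gene induced by TGF-beta, was higher than WT in every mutant, and most in D218Y. Its values were 7.54, 7.52 and 7.26 in R216Q, 7.70, 7.62 and 7.85 in R216W, 7.20, 7.30 and 7.35 in D218G, 8.26, 8.23 and 8.28 in D218Y, and 6.92, 6.96 and 7.19 in WT. Every mutant array was above every WT array, though the lowest D218G and the highest WT array were 7.20 and 7.19. Klf10 rose by 1.23 ± 0.08 in D218Y (SE, n = 3 per line, limma adjusted p = 1.12e-08, 2.35-fold), by 0.70 ± 0.08 in R216W (adjusted p = 2.61e-05, 1.62-fold) and by 0.41 ± 0.08 in R216Q (adjusted p = 0.00192, 1.33-fold). The D218G rise was 0.26 ± 0.08 (limma adjusted p = 0.0446). That last call was lost with only the 6 arrays of the 2 lines (limma adjusted p = 0.0986), without moderation (adjusted p = 0.0904), and without replicate 1 or 2 of WT, replicate 2 of R216Q, replicate 1 of R216W, replicate 2 or 3 of D218G or any array of D218Y (adjusted p from 0.0501 to 0.184).

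From high to low the Klf10 order was D218Y, R216W, R216Q, D218G and WT, in which R216Q and D218G did not differ beyond their spread (D218G minus R216Q -0.15 ± 0.08, limma adjusted p = 0.337). D218Y exceeded R216W by 0.53 ± 0.08 (limma adjusted p = 1.01e-04). R216W exceeded R216Q by 0.29 ± 0.08 (limma adjusted p = 0.0282), a call lost with only the 6 arrays of R216W and R216Q (adjusted p = 0.0558), without moderation (adjusted p = 0.0645) and without replicate 3 of R216Q or replicate 1 or 3 of R216W (adjusted p from 0.0652 to 0.147). Gata2, the progenitor factor that GATA1 represses, averaged 9.48 in R216Q, 9.57 in R216W, 8.03 in D218G, 11.16 in D218Y and 8.31 in WT. Klf10 and Gata2 were both higher than WT in R216Q, R216W and, most, D218Y, with Pearson r = 0.921 over the 15 arrays. D218G had less Gata2 than WT, and more Klf10 by the call that many alternatives lost. The named genes most like Klf10 over the 15 arrays were Ak3, a mitochondrial adenylate kinase gene (r = 0.977), Jade3 (r = 0.968) and Dbt, a subunit gene of the branched-chain keto acid dehydrogenase (r = 0.967), with correlations of 0.59, 0.44 and 0.39 within lines.

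Klf13, whose loss disturbs red cell maturation in mice, was lower than WT in every mutant. It read 9.02, 9.05 and 8.94 in R216Q, 8.94, 8.98 and 8.99 in R216W, 9.22, 9.23 and 9.28 in D218G, 9.13, 9.09 and 9.12 in D218Y, and 9.42, 9.36 and 9.45 in WT. No mutant array reached the lowest WT array. The falls were 0.44 ± 0.04 in R216W (SE, n = 3 per line, limma adjusted p = 1.10e-06, 26.5% lower), 0.41 ± 0.04 in R216Q (adjusted p = 1.75e-06, 24.7% lower), 0.30 ± 0.04 in D218Y (adjusted p = 1.11e-05, 18.9% lower) and 0.17 ± 0.04 in D218G (adjusted p = 0.00465, 11.4% lower). The order from high to low was WT, D218G, D218Y, R216Q and R216W, and R216W and R216Q did not differ beyond their spread (-0.03 ± 0.04, limma adjusted p = 0.726). Unlike for Klf1 and Klf3, the lowest values were those of the R216 lines. D218G exceeded R216Q by 0.24 ± 0.04 (limma adjusted p = 6.00e-04) and R216W by 0.27 ± 0.04 (adjusted p = 8.46e-05).

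The D218Y values of Klf13 set against the R216 lines depended on scaling. D218Y exceeded R216Q by 0.11 ± 0.04 (limma adjusted p = 0.0471) and R216W by 0.14 ± 0.04 (adjusted p = 0.00889). Under quantile normalization these were 0.01 (limma adjusted p = 0.811) and 0.06 (adjusted p = 0.194), and the R216Q call was also lost under cyclic loess, with only the 6 arrays of D218Y and R216Q, and without replicate 1 of WT, replicate 1 or 3 of R216Q, replicate 1 or 2 of D218G, or any array of R216W or D218Y (adjusted p from 0.0534 to 0.198). The fall in D218G against WT was lost with only the 6 arrays of D218G and WT (limma adjusted p = 0.0607) and without replicate 3 of D218G it was -0.19 (adjusted p = 0.00485).

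Klf9, a gene induced by thyroid and glucocorticoid hormones, differed in sign between the R216 substitutions. It read 8.71, 8.82 and 8.74 in R216Q, 9.04, 9.07 and 9.02 in R216W, 8.88, 8.85 and 8.92 in D218G, 8.98, 8.95 and 9.04 in D218Y, and 8.92, 8.82 and 8.95 in WT. The R216W arrays lay above all WT arrays, while the highest R216Q and lowest WT array both read 8.82. R216W minus R216Q was 0.29 ± 0.04 (SE, n = 3 per line, limma adjusted p = 2.80e-04), and passed under every alternative tried. Against WT, Klf9 rose in R216W by 0.14 ± 0.04 (limma adjusted p = 0.0372) and fell in R216Q by 0.14 ± 0.04 (adjusted p = 0.0338). It did not pass in D218G (-0.01 ± 0.04, limma adjusted p = 0.899) or D218Y (0.10 ± 0.04, adjusted p = 0.0945). The order was R216W, D218Y, WT, D218G and R216Q, and no neighbours in it differed at an adjusted p under 0.05. Under quantile normalization D218Y was below WT (-0.03, limma adjusted p = 0.603), and D218Y minus R216W, at -0.05 ± 0.04 (adjusted p = 0.424) as deposited, passed (-0.13, adjusted p = 0.0318).

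Both Klf9 calls against WT were fragile. The rise in R216W was lost under quantile normalization (limma adjusted p = 0.172), with only the 6 arrays of R216W and WT (adjusted p = 0.085) and without replicate 1 or 2 of WT, any array of R216W, replicate 1 of D218G or replicate 1 of D218Y (adjusted p from 0.0504 to 0.148). The fall in R216Q was lost with only the 6 arrays of R216Q and WT (limma adjusted p = 0.114) and without replicate 1 or 3 of WT or of R216Q (adjusted p from 0.101 to 0.145).

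Among Klf2, Klf4 and Klf7, what passed was in D218Y. Klf2, which supports embryonic globin expression in the mouse, ranged from 6.83 to 7.20 over all arrays, Klf4, known from pluripotent and monocytic cells, from 6.44 to 7.04, and Klf7, known from neurons, from 5.50 to 6.02. Klf7 was thus dim, below the median gene of every line (6.41 in D218Y, 6.50 in WT) and at percentile 37.0 of mean intensity. Klf7 read 5.52, 5.50 and 5.70 in D218Y and 5.80, 5.97 and 5.79 in WT, so the groups did not overlap. In D218Y Klf7 fell by 0.28 ± 0.08 (SE, n = 3 per line, limma adjusted p = 0.00713), a call lost under quantile normalization (adjusted p = 0.101) and cyclic loess (adjusted p = 0.146). Klf2 read 6.83, 6.95 and 6.93 in D218Y and 7.03, 7.01 and 7.20 in WT, again with no overlap. It fell by 0.18 ± 0.06 in D218Y (limma adjusted p = 0.0267), which was lost under cyclic loess (adjusted p = 0.0553) and without replicate 3 of WT (adjusted p = 0.142) or replicate 1 of D218Y (adjusted p = 0.115). Klf4 in D218Y was at -0.22 ± 0.10 (limma adjusted p = 0.0742) and passed without replicate 2 of WT (adjusted p = 0.0308) or replicate 2 of D218Y (adjusted p = 0.0376). In R216Q, R216W and D218G none of these 3 genes passed against WT, with limma differences between -0.06 and 0.05 (adjusted p from 0.593 to 0.978). Their 95% intervals reached from -0.25 to 0.22.

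**Figure D2:**
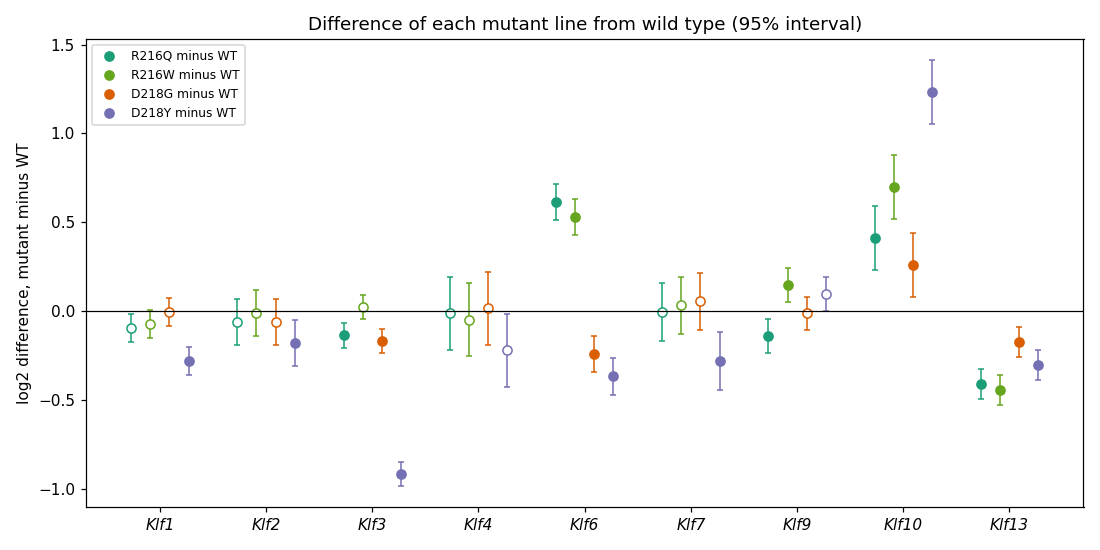
Log2 difference of each mutant line from WT for the 9 genes (points, 3 arrays per line), with limma's 95% interval; filled points passed at an adjusted p under 0.05 and open points did not. Klf6 has 2 positive and 2 negative differences, Klf10 only positive and Klf13 only negative ones, and D218Y has the most filled points (7 of 9).

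Counted per line, 5 of the 9 genes passed in R216Q (Klf6 and Klf10 rose, Klf3, Klf9 and Klf13 fell), where 21.5% of all genes tested passed. In R216W 4 of 9 passed (Klf6, Klf9 and Klf10 rose, Klf13 fell), with 16.6% of all genes. In D218G 4 of 9 passed (Klf10 rose, Klf3, Klf6 and Klf13 fell), with 18.1% of all genes. In D218Y 7 of 9 passed, Klf10 being the 1 that rose while Klf1, Klf2, Klf3, Klf6, Klf7 and Klf13 fell, with 44.4% of all genes. The median difference of the 9 genes was -0.06 in R216Q, 0.02 in R216W, -0.01 in D218G and -0.28 in D218Y, and over all genes it was -0.01, -0.02, -0.02 and -0.07. The shares of all genes, here and below, include dim genes, whereas all of the 9 but Klf7 lay above the median intensity. Among all 19933 genes 4283, 3308, 3601 and 8857 passed in R216Q, R216W, D218G and D218Y. Among only those above the median intensity 4639, 3812, 4054 and 7244 passed, and so did 6, 4, 4 and 6 of the genes examined here. The shares of all genes are thus no like comparison for genes of this level. The 1 change of at least 2-fold against WT was that of Klf10 in D218Y. In D218G the count was 2 when only the 6 arrays of D218G and WT were fitted, since Klf10 and Klf13 no longer passed. The D218Y count was 6 under quantile normalization, without Klf7, and 5 under cyclic loess, without Klf2 and Klf7.

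Between substitutions of the same residue, R216W minus R216Q passed for 3 of 9 genes, all higher in R216W: Klf3 (0.16 ± 0.03, SE, n = 3 per line, limma adjusted p = 0.00215), Klf9 and Klf10. Of all genes 16.9% passed, 8.25% higher and 8.65% lower. None of the 9 was lower in R216W by limma, nor at an unadjusted p under 0.05 (0 genes) or in the ordinary linear model (0 genes), but with array weights limma called Klf6 lower (-0.11, adjusted p = 0.0304). D218Y minus D218G passed for 5 of 9, where 33.0% of all genes passed, 17.4% higher and 15.6% lower. Klf10 was higher in D218Y (0.97 ± 0.08, limma adjusted p = 2.95e-07), and Klf3 (-0.75 ± 0.03), Klf7 (-0.34 ± 0.08), Klf1 (-0.28 ± 0.04) and Klf13 (-0.13 ± 0.04) were lower (adjusted p from 1.56e-10 to 0.0186). The Klf13 call was lost without replicate 2 of D218Y (limma adjusted p = 0.0679). Without replicate 3 of D218G 8 of 9 passed, as Klf2 (-0.17, limma adjusted p = 0.0382), Klf4 (-0.27, adjusted p = 0.0486) and Klf9 (0.13, adjusted p = 0.0463) were added.

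Across residues, D218G minus R216Q passed for 2 of 9 genes (13.4% of all genes, 6.87% higher and 6.52% lower), with Klf13 higher and Klf6 lower in D218G. D218G minus R216W passed for 5 of 9 (22.0% of all genes, 11.3% higher and 10.7% lower), with Klf13 higher and Klf3, Klf6, Klf9 and Klf10 lower in D218G. D218Y minus R216Q passed for 7 of 9 (31.8% of all genes, 16.5% higher and 15.4% lower), with Klf9, Klf10 and Klf13 higher and Klf1, Klf3, Klf6 and Klf7 lower in D218Y. D218Y minus R216W passed for 7 of 9 (36.3% of all genes, 18.8% higher and 17.5% lower), with Klf10 and Klf13 higher and Klf1, Klf2, Klf3, Klf6 and Klf7 lower in D218Y. Klf10 was the gene with the widest gap between a D218 and an R216 line after Klf6 and Klf3, at 0.82 ± 0.08 for D218Y minus R216Q (SE, n = 3 per line, limma adjusted p = 2.11e-06). Klf7 in D218Y minus R216Q was lost under quantile normalization (limma adjusted p = 0.109) and cyclic loess (adjusted p = 0.130). Klf9 in D218G minus R216W (-0.16 ± 0.04, limma adjusted p = 0.0171) was lost with array weights and without replicate 2 of R216W or replicate 1 or 2 of D218G (adjusted p from 0.0518 to 0.0669). Klf2 in D218Y minus R216W (-0.17 ± 0.06, limma adjusted p = 0.0400) was lost without moderation, with trend and robust moderation, and without replicate 1 or 2 of R216Q, replicate 2 or 3 of R216W or replicate 1 or 3 of D218Y (adjusted p from 0.0503 to 0.163).

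**Figure D3:**
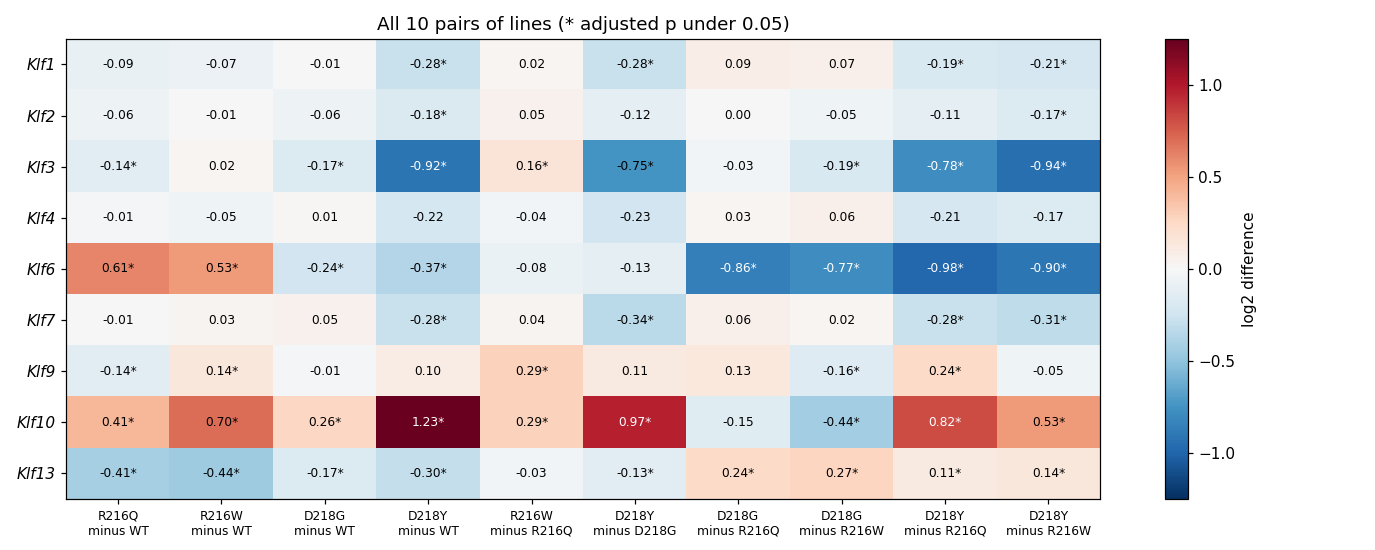
Log2 difference of the 9 genes (rows) in all 10 pairs of lines (columns, first named line minus the second); red is higher and blue lower in the first, and an asterisk marks an adjusted p under 0.05. The Klf6 row is darkest in the 4 pairs that set a D218 line against an R216 line (-0.77 to -0.98).

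Genes listed as targets of KLF1 fell more often than they rose in every mutant. The list held 24 measured genes, and many of them are red cell genes that GATA1 also controls. It was chosen with earlier results of these data known, and shares Slc4a1, Alas2, Epb42 and Tfrc with the erythroid markers above. The counts therefore describe the list and are no independent test of it. In R216Q 15 fell and 2 rose (median -0.19), in R216W 14 fell and 1 rose (median -0.13), in D218G 15 fell and 2 rose (median -0.21), and in D218Y 18 fell and 2 rose (median -0.61). In R216W 15 passed in all, and 11 did with only the 6 arrays of R216W and WT. Over all genes 9.65%, 7.23%, 7.77% and 24.2% were called lower in those lines, and 11.8%, 9.36%, 10.3% and 20.3% were called higher. The largest falls in D218Y were those of Slc4a1 (-5.60 ± 0.05, limma adjusted p = 2.12e-17), Alas2, the first enzyme of erythroid haem synthesis (-3.18 ± 0.06, adjusted p = 1.64e-14), Dmtn, the actin-bundling protein dematin (-2.91 ± 0.05, adjusted p = 5.03e-15), and Slc25a37, the mitochondrial iron importer (-2.33 ± 0.03, adjusted p = 1.03e-15). E2f4, a cell cycle factor, rose in R216Q (0.23 ± 0.04, limma adjusted p = 3.68e-04), D218G (0.53 ± 0.04, adjusted p = 1.77e-07) and D218Y (0.70 ± 0.04, adjusted p = 7.23e-10) and fell in R216W (-0.25 ± 0.04, adjusted p = 1.73e-04). In D218G, where Klf1 was at -0.0050 ± 0.04, Slc4a1 fell by 1.11 ± 0.05 and Epb42, the band 4.2 protein, by 0.99 ± 0.08 (limma adjusted p = 4.24e-09 and 5.31e-07). These were the largest falls of the list in D218G, where 7 of the 24 genes did not pass. The part of Klf1 in the changes of the listed genes was not tested.

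**Figure D4:**
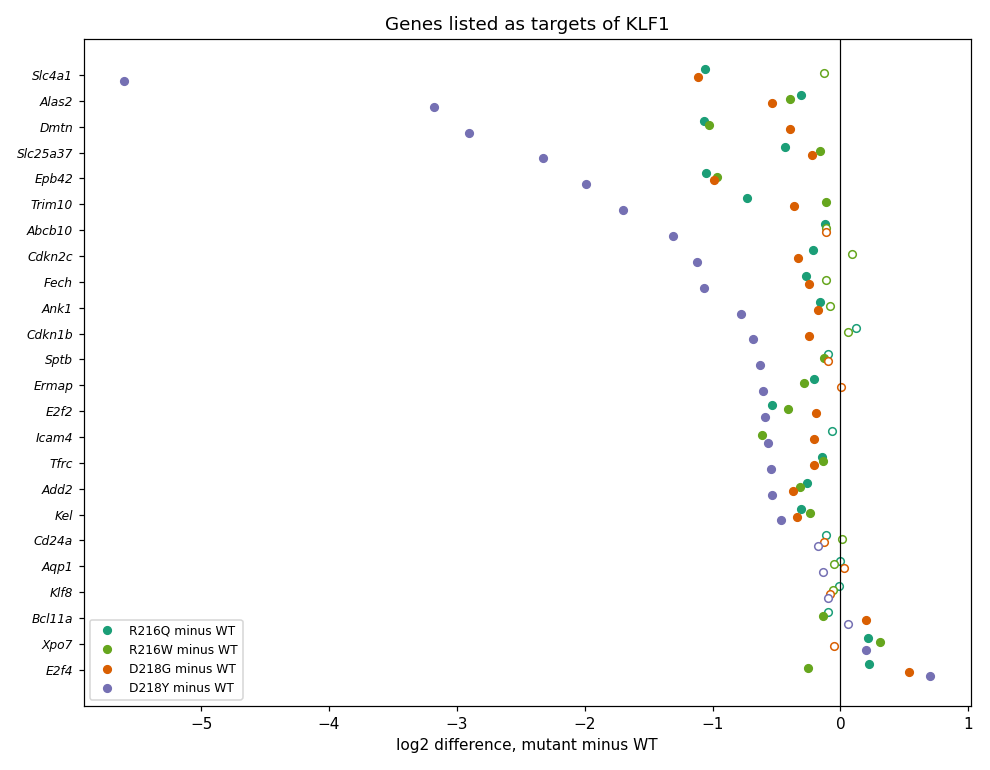
Log2 difference of each mutant line from WT (horizontal axis) for the 24 measured genes listed as KLF1 targets, ordered by the D218Y difference; filled points passed at an adjusted p under 0.05. In D218Y 18 of the 24 are filled and below 0, down to -5.60 for Slc4a1.

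Among 16 other measured genes of the KLF and Sp family, 2 passed in R216Q, 0 in R216W, 2 in D218G and 7 in D218Y, where 21.5%, 16.6%, 18.1% and 44.4% of all genes passed. Klf16, a repressor, rose in R216Q (0.28 ± 0.05, limma adjusted p = 3.53e-04), D218G (0.39 ± 0.05, adjusted p = 1.97e-05) and D218Y (0.73 ± 0.05, adjusted p = 4.42e-09). Sp4, best known from neurons, fell in D218G (-0.28 ± 0.07, limma adjusted p = 0.00705) and D218Y (-0.86 ± 0.07, adjusted p = 3.89e-08), and Sp1, a ubiquitous activator, fell in R216Q (-0.18 ± 0.04, adjusted p = 0.00488) and D218Y (-0.14 ± 0.04, adjusted p = 0.0105). The family counts were 1 risen and 1 fallen in R216Q, the same in D218G, and 1 risen and 6 fallen in D218Y, including Klf11 (-0.31 ± 0.08) and Klf14 (-0.22 ± 0.08). In R216W limma called 0 of the 16, with 0 at an unadjusted p under 0.05 and 0 in the ordinary linear model, and 1 under quantile normalization. The D218Y count of 7 was 4 without replicate 1 of D218Y and 11 with array weights, and that of R216Q was 4 without replicate 3 of WT and with array weights.

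Of 16 cofactor genes of Kruppel-like factors, 2 rose and 4 fell in R216Q, 4 rose and 0 fell in R216W (1 fell at an unadjusted p under 0.05), 2 rose and 1 fell in D218G, and 7 rose and 4 fell in D218Y. Of all genes 21.5%, 16.6%, 18.1% and 44.4% passed in these lines. Wwp1, a ubiquitin ligase that targets Kruppel-like factors, rose in R216Q (0.54 ± 0.05, limma adjusted p = 5.28e-07), R216W (0.33 ± 0.05, adjusted p = 9.81e-05) and D218Y (0.58 ± 0.05, adjusted p = 5.09e-08). Crebbp, the acetyltransferase CBP, fell in R216Q (-0.29 ± 0.03), D218G (-0.14 ± 0.03) and D218Y (-0.55 ± 0.03; limma adjusted p from 1.69e-09 to 0.00563). Fhl3, a LIM protein that binds KLF3, rose in R216W (0.21 ± 0.06, limma adjusted p = 0.0405) and D218Y (0.76 ± 0.06, adjusted p = 1.28e-07). Kat2b, the acetyltransferase PCAF, rose in R216W (0.20 ± 0.06, limma adjusted p = 0.0321) and fell in D218Y (-0.67 ± 0.06, adjusted p = 3.14e-07). Ctbp2, the KLF3 corepressor gene, rose in D218Y (0.47 ± 0.04, limma adjusted p = 1.76e-07) and, by less, in R216W (0.14 ± 0.04, adjusted p = 0.0334). The R216W count of 4 was 1 without replicate 3 of WT or replicate 2 or 3 of R216W and 2 without replicate 2 of WT or replicate 1 of R216W, and the D218G count of 3 was 5 without replicate 3 of D218G and 0 with the 6 arrays of D218G and WT.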

How the data were processed

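Total RNA of 15 G1E cultures was hybridised to Affymetrix mouse arrays, and groups and replicate numbers came from the sample titles. The deposited values are log2 expression values for 28350 probe sets, which the authors made with Partek 6.6 and RMA, per the submitters' processing notes; RMA corrects background, normalizes by quantiles and summarises probes, with settings that the sources used here do not give. The log2 values were used as deposited. Arrays carry no counts, so their number limits the precision.

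Of the probe sets, 21780 had 1 gene symbol, and the one with the highest mean over the arrays was kept for each of 19933 genes. limma 3.58.1 (R 4.3.3) was fitted to all 15 arrays with 1 mean per line, followed by eBayes, all 10 pairs of lines as contrasts, and Benjamini-Hochberg adjustment over all genes within each contrast, two-sided, with calls at an adjusted p under 0.05. P-values measure the spread between the cultures of these lines. The fit was tested on simulated data, where it called 52% of changes of 0.25 log2, 84% of 0.5 and 100% of 1. A small difference that did not pass is therefore not shown to be absent.

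The 9 genes, the lists of KLF1 targets, family members and cofactors, and the markers were chosen with earlier results of these data known. Named genes were all 9, up to 4 per list and mutant with the largest change past the threshold, and for Klf3, Klf6 and Klf10, whose line means span at least 0.5, the 3 genes with the highest Pearson r; Klf11 and Klf14 are among the 4 of their list. Some genes of the target and family lists are not reported here. Alternatives were quantile and cyclic loess normalization, a filter on dim genes, only the 6 arrays of the lines compared, other variance moderation, array weights, a replicate block, averaging the probe sets of a gene, and each array left out. Promoter windows came from RefSeq (GRCm38.p6).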

Additional observations from a re-analysis of the deposited data

How the results depend on the processing

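Over 90 differences (9 genes, 10 pairs of lines), 49 passed and 36 of them passed under every alternative. Averaging the probe sets could not change the values of these 9 genes, since each had 1, and the filter on dim genes left out Klf7. Klf7 therefore had 23 alternatives and the other genes 24. Of 2150 values under alternatives, 71 lost a call, 27 gained one and 0 changed direction where a call was involved; the cause was not tested. Without single arrays, the count of the 9 genes ran from 4 to 5 in R216Q, 3 to 4 in R216W, 3 to 4 in D218G, 6 to 8 in D218Y, 2 to 3 for R216W minus R216Q and 5 to 8 for D218Y minus D218G, where 8 is without replicate 3 of D218G. With only the 6 arrays compared, 2 of the 9 passed in D218G, and the cause was not tested. The array weights stopped before their convergence tolerance was reached. The median of all genes in D218Y against WT was -0.07, and -0.02 under quantile normalization.

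Replicate numbers did not pair the samples: of 30 pairs of arrays with the same number in different lines, 3 had deviations from their line means correlated above 0.1, and 2 of 15 arrays correlated best with one of their own number. With the replicate block, the counts were 4 in R216Q, 3 in R216W, 3 in D218G, 7 in D218Y, 3 for R216W minus R216Q and 5 for D218Y minus D218G. It lost Klf9 in R216Q (limma adjusted p = 0.0526) and R216W (0.0587), Klf10 in D218G (0.0668), Klf13 in D218Y minus R216Q (0.0749) and Klf2 in D218Y minus R216W (0.0642).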
